A study of Homo sapiens with 4 samples.

Results

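The AP-1 subunit genes FOS, FOSB, FOSL1, FOSL2, JUN, JUNB, JUND, BATF, BATF3 and ATF3 were examined for binding of FOXC1, a transcription factor of the forkhead family, in J82 cells. They are 10 of the 20163 protein-coding genes annotated on the chromosomes analysed. A FOXC1 peak was assigned to a gene when its summit, the position of the highest pileup, lay in the gene body or within 50 kb of it. By this rule the genes held 14 of 22405 peaks in replicate 1, 36 of 41789 peaks in replicate 2 and 9 of 13238 regions shared by both replicates.

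J82 is an established human bladder cancer cell line, grown here in DMEM with 10% FBS and given no other treatment in the labels. FOXC1 chromatin immunoprecipitation with sequencing (ChIP-seq) used the anti-FOXC1 antibody D8A6 and 2 biological replicates, and 2 input libraries were made without antibody. Single-end reads of 75 bp were obtained from all 4 libraries. The ChIP-seq mapped where FOXC1 binds in these cells, as one part of a wider study of drug resistance in bladder cancer. With only 1 condition among the peak lists no comparison between treatments could be made.

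About 43200000 ChIP reads in replicate 1 and 41500000 in replicate 2 stood behind the peak calls. The fold enrichment deposited by the authors, the ChIP pileup over the local background, reached a median over all peaks of 3.02 in the first replicate and 3.63 in the second. The number of reads over each summit was recovered from the peak values, and its median was 18 and 23. A shared region held at least 1 peak of both replicates overlapping by 1 bp or more. The irreproducible discovery rate (IDR), for which low values mean that both replicates rank a region alike and high, was counted at 0.05 or less. The input libraries, H3K27ac peaks and RNA-seq data were not analysed here, so the identity of the cells and the expression of the AP-1 genes were not checked.

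AP-1 is a family of dimeric transcription factors built from proteins with a basic region that touches DNA and a leucine zipper that joins the partners. Jun proteins pair with each other or with Fos proteins, whereas Fos proteins need a Jun partner, and BATF and ATF proteins join Jun proteins in further dimers. Dimers of Jun proteins with each other or with Fos proteins bind TGACTCA or its reverse complement TGAGTCA, called the AP-1 sequence here. Several of the genes are immediate-early genes, switched on within minutes of growth factor or stress signals, and AP-1 is known for driving proliferation and invasion in epithelial cancers.

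The sequences under the summits are shown first, as examples of a forkhead or AP-1 sequence under a summit at JUN, ATF3, BATF and FOS. Each is the hg19 plus strand over 101 bases centred on the summit, with capitals marking the forkhead sequence, written GTAAACA or GTAAATA or ATAAACA or ATAAATA on either strand, or the AP-1 sequence. The first is the strongest shared region of JUN, at chr1:59280966-59281066. After it, the JUN region at chr1:59219848-59219948 was the only shared region of any of the genes with an AP-1 match. Next come both intronic regions of ATF3, at chr1:212740629-212740729 and chr1:212769720-212769820. The last pair were peaks of replicate 2 alone, in BATF at chr14:76002427-76002527 and upstream of FOS at chr14:75725994-75726094.
JUN 31.3 kb upstream: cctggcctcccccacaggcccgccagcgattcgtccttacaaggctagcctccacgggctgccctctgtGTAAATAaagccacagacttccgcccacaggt
JUN 29.8 kb downstream of the gene start: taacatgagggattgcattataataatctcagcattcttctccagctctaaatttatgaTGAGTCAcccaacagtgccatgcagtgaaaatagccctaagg
ATF3 first intronic region: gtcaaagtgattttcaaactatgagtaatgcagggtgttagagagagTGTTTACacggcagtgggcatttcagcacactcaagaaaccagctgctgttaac
ATF3 second intronic region: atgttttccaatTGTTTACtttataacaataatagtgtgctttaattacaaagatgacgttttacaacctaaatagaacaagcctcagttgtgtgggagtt
BATF intron, replicate 2 alone: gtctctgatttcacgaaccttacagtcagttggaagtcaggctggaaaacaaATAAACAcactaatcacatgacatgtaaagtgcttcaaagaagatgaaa
FOS 19.5 kb upstream, replicate 2 alone: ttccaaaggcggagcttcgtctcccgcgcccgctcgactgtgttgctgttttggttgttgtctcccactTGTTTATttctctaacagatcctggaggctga

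FOXC1 peaks lay near most of the AP-1 subunit genes, but a shared region lay near only some of them. In replicate 1, 6 of the 10 genes had a peak, compared with 62.7% of all protein-coding genes. In replicate 2, 9 of the 10 had one, compared with 80.1%. A shared region was present at JUN, FOSL1, FOS, JUNB and ATF3, or 5 of 10, compared with 46.6% of all protein-coding genes. FOSB, FOSL2, JUND, BATF and BATF3 had none. The shares of genes with a peak or a shared region were thus near those of protein-coding genes at large, and what set the members apart from each other was how many regions each held and how strong they were.

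**Figure D1:**
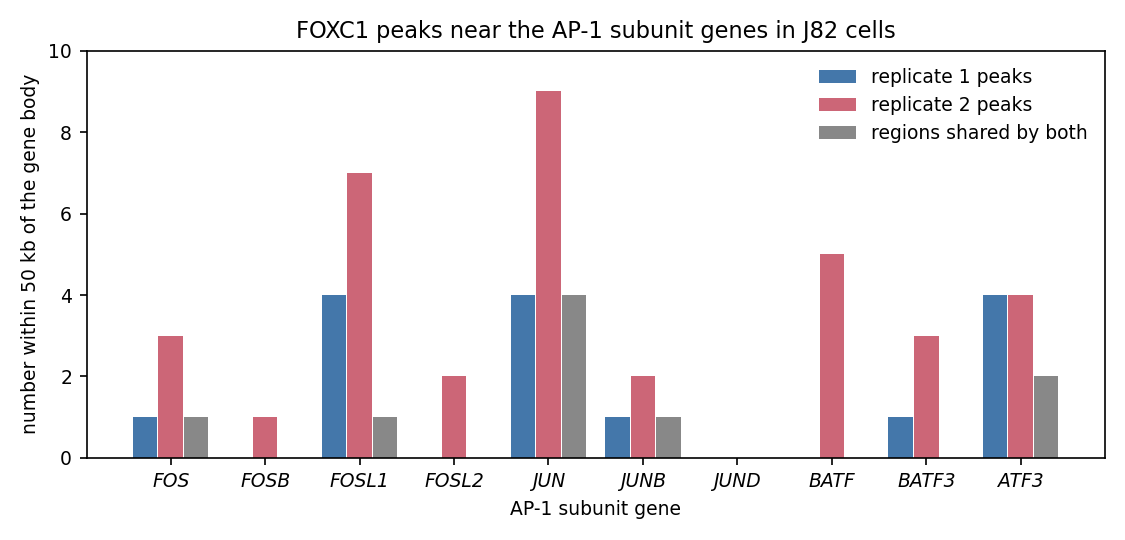
Number of FOXC1 peaks of replicate 1 (blue), of replicate 2 (red) and of shared regions (grey) in the gene body or within 50 kb of each AP-1 subunit gene. JUN held the most, with 9 peaks in replicate 2 and 4 shared regions, and JUND held none.

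JUN held 4 peaks in replicate 1, 9 in replicate 2 and 4 shared regions. As many shared regions were found at 4.74% of protein-coding genes, and as many replicate 2 peaks at 6.07%. The windows differ in length with the gene body, so peaks were also counted per length. JUN had 8.4 replicate 2 peaks per 100 kb of window, FOSL1 had 6.45 and BATF had 4.01. Summed over the windows of all 10 genes, with a peak counted once for each window that held it, there were 1.31 peaks per 100 kb in replicate 1, 3.13 in replicate 2 and 0.784 shared regions, compared with 0.905, 1.82 and 0.519 over the windows of all protein-coding genes. The median window was 108 kb for the AP-1 subunit genes and 127 kb for all protein-coding genes. The peak in both the ATF3 and BATF3 windows thus counted 2 times, and windows of all genes were treated alike. JUN made up part of the difference in peaks and all of that in shared regions. Without JUN, a check added after the values were seen, there were 1.06 and 2.59 peaks per 100 kb, still above those of all genes. The shared regions were then 0.48 per 100 kb, below that of all genes. The densities were not tested, since the genes are few and were not drawn at random.

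**Figure D2:**
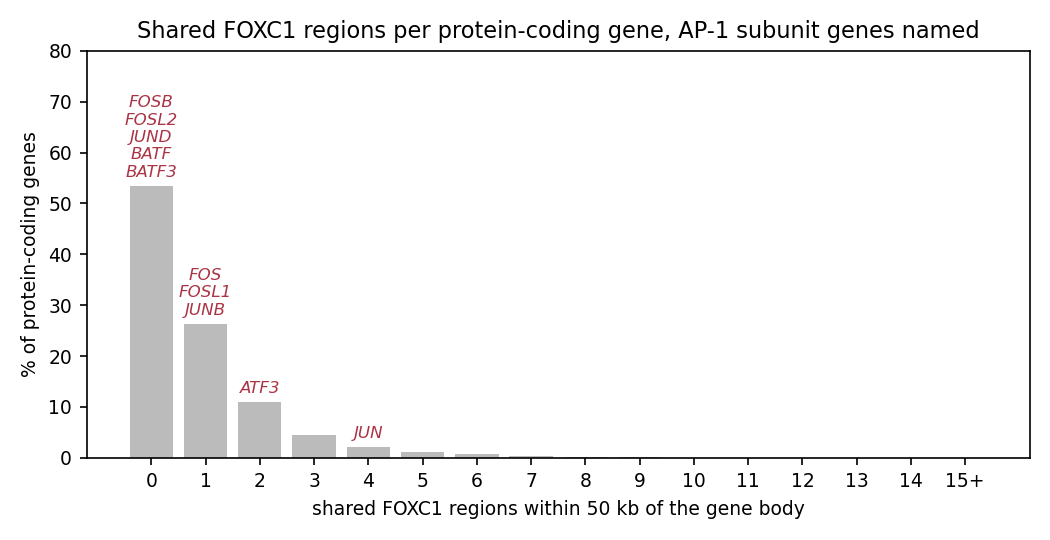
Share of all 20163 protein-coding genes (bars, %) with each number of shared FOXC1 regions within 50 kb, with the AP-1 subunit genes written above the number they held. Of all the genes, 53.4% had none, as did FOSB, FOSL2, JUND, BATF and BATF3, and JUN stood at 4.

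Near the AP-1 subunit genes the fold enrichment of the peaks ran from 2.66 to 7 in replicate 1 (median 3.05) and from 2.49 to 22.7 in replicate 2 (median 3.56). Most of these peaks were therefore weak, and their medians lay close to those of all peaks. A −log10 q of 5 or more was reached by 6 of 14 peaks in replicate 1, compared with 30.8% of all its peaks, and by 14 of 36 in replicate 2, compared with 43.3%. The lowest −log10 q near the genes was 1.07 in replicate 1 and 0.453 in replicate 2. Some listed peaks thus had a q above 0.05. Of the replicate 1 peaks, 9 of 14 (64.3%) had an overlapping peak in replicate 2, against 59.6% of the whole list. Of the replicate 2 peaks, 9 of 36 (25%) had one in replicate 1, against 31.7%. Apart from JUND, the members without a shared region had replicate 2 peaks that the other list did not overlap.

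**Figure D3:**
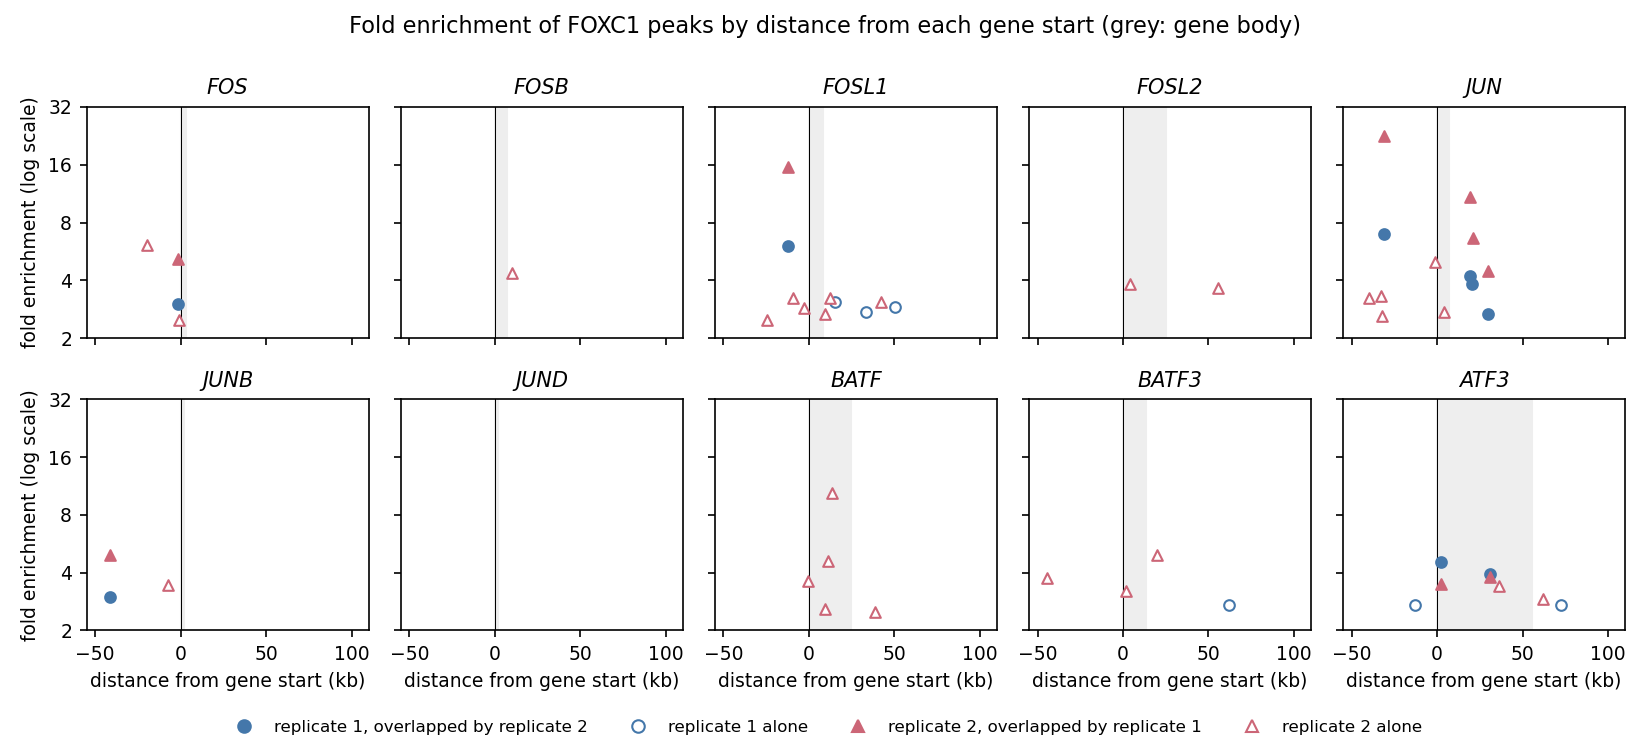
Fold enrichment (vertical, log scale) of every FOXC1 peak against its distance in kb from the gene start, 1 panel per gene, with negative distances upstream and the gene body in grey. Filled symbols are peaks overlapped by the other replicate. JUN and FOSL1 held the highest points, at 22.7 and 15.6 in replicate 2, and JUND is empty.

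Among the Fos genes, FOSL1 had the strongest region. FOSL1 encodes FRA1, a Fos protein without the transactivation domain of FOS that is often abundant in invasive carcinoma cells. Its shared region lay 12.1 kb upstream of the gene start, between genes. The fold enrichment there was 6.04 in replicate 1, from 43 reads, and 15.6 in replicate 2, from 81 reads, a mean of 10.8 ± 6.77 (SD, n = 2). Both replicates thus showed it clearly above the median peak, and its IDR was 7.89e-05. By the worse of its ranks in the replicates it stood among the top 16.3% of the shared regions. The nearest start of a coding gene was not that of FOSL1 but that of C11orf68, at 5660 bp.

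FOSL1 lies in a gene-dense stretch of chromosome 11, and its 3 other peaks of replicate 1 and 6 other peaks of replicate 2 were weak and unpaired. They ran from 2.72 to 3.1 in fold enrichment in replicate 1 and from 2.49 to 3.25 in replicate 2. All 4 FOSL1 peaks of replicate 1, and 6 of the 7 of replicate 2, were nearer to the start of another coding gene, among them FIBP, EFEMP2, CFL1, CCDC85B and DRAP1. The FOSL1 peaks are therefore FOSL1 peaks by distance alone. Over all 10 genes, 8 of 14 peaks in replicate 1 and 24 of 36 in replicate 2 had the member as the nearest coding start, as did 7 of the 9 shared regions.

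FOS, the founding Fos protein and an immediate-early gene, was the only member with a shared region at a start site, taken as within 2 kb of an annotated transcript start. Genes with such a region made up 8.64% of all protein-coding genes. The region (chr14:75743735-75744380) had its summit 1487 bp upstream of FOS, with a fold enrichment of 3 from 16 reads in replicate 1 and of 5.15 from 26 reads in replicate 2. The pairing was thin, since the peaks of the replicates overlapped by 5 bp and their summits lay 264 bp apart, compared with a median of 28 bp over all shared regions. The IDR was 0.186, and neither sequence was found within 50 bp of the midpoint, where 78.2% of the bases were G or C. The median G or C content over all shared regions was 39.6%. At the summit of the replicate 2 peak itself, 1619 bp upstream, a forkhead sequence was present.

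The strongest peak near FOS was in replicate 2 alone. It lay 19.5 kb upstream, in an intron of the non-coding gene ENSG00000258740, with a fold enrichment of 6.11 from 31 reads, and carried ATAAACA on the minus strand 22 bp from its summit. An annotated start of another gene, ENSG00000258820, lay 70 bp from that summit. Another replicate 2 peak, 824 bp upstream of FOS, had a fold enrichment of 2.49 from 12 reads, at the low end of the list. Its −log10 q was 0.453. Replicate 1 had no peak at either place.

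FOSB, a close relative of FOS, had no replicate 1 peak and 1 peak in replicate 2, with a fold enrichment of 4.39 from 28 reads. That peak lay past the 3′ end of FOSB, in an intron of ERCC1, a DNA repair gene, 492 bp from an ERCC1 start. The nearest shared region to FOSB was 156 kb away. FOSL2, which encodes the Fos protein FRA2, had no replicate 1 peak and a pair of replicate 2 peaks. These had fold enrichments of 3.82 from 19 reads in its own intron, 1001 bp from an annotated start, and 3.63 from 18 reads 55.8 kb from the gene start. The nearest shared region to FOSL2 lay 61.3 kb from the gene, in an intron of PLB1. Neither FOSB nor FOSL2 held a forkhead or AP-1 match at these summits.

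Among the Jun genes, JUN stood apart from JUNB and JUND. JUN encodes c-Jun, the main partner of the Fos proteins. Its 4 shared regions flanked the gene on both sides, 1 upstream and 3 beyond the 3′ end, and none was within 2 kb of its start. The strongest (chr1:59280610-59281407) lay 31.3 kb upstream, in an exon of LINC01135, a long non-coding RNA gene with an annotated start beside JUN. Another annotated start of LINC01135 lay 909 bp from the summit of this region. There the fold enrichment was 7 from 50 reads in replicate 1 and 22.7 from 123 reads in replicate 2, a mean of 14.9 ± 11.1 (SD, n = 2). This was the highest value of any AP-1 subunit gene in either replicate, with an IDR of 7.59e-06 and a place among the top 12.6% of shared regions. GTAAATA was centred 22 bp from the summit. In replicate 2, 6.48% of all shared regions were as high, and in replicate 1, 16.6%.

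Beyond the 3′ end of JUN, 3 shared regions lay in introns of the non-coding gene ENSG00000283445. The nearest to JUN (chr1:59229977-59230881), 19.5 kb from the gene start, had a fold enrichment of 4.22 from 26 reads in replicate 1 and 10.9 from 63 reads in replicate 2, with an IDR of 0.00674. The next (chr1:59228277-59229378), at 20.7 kb, had 3.82 from 22 reads and 6.65 from 43 reads, with an IDR of 0.0384 and ATAAATA on the minus strand 47 bp from its summit. The farthest (chr1:59219698-59220378), at 29.8 kb, had 2.66 from 16 reads and 4.47 from 24 reads, with an IDR of 0.236. These 3 shared regions thus weakened with distance from JUN in both replicates. A replicate 2 peak in the JUN gene body, not overlapped by replicate 1, was weaker still, at 2.73. The farthest region carried TGAGTCA 12 bp from its summit and no forkhead sequence. For these 3 regions the closest annotated start of any gene was one of AL136985.1. It lay 361, 1560 and 10709 bp from their summits, in order of distance from JUN.

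The other 5 replicate 2 peaks of JUN were not overlapped by replicate 1. One lay 1118 bp upstream of JUN, 10 bp from the annotated start of LINC01135, with a fold enrichment of 4.96 from 25 reads. One lay in the gene body of JUN, in an intron of a longer annotated transcript, with 2.73 from 17 reads. The remaining 3, all in LINC01135 introns between 32.2 and 39.8 kb upstream, had 2.59, 3.33 and 3.25 from 13, 21 and 19 reads. None of the 5 held a forkhead or AP-1 match within 50 bp of its summit.

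JUNB, a Jun protein with weaker transactivation than JUN, had 1 peak in replicate 1, 2 in replicate 2 and 1 shared region. The region (chr19:12860466-12860997) lay 41.6 kb upstream, 1780 bp from the start of BEST2, with a fold enrichment of 2.97 from 18 reads in replicate 1 and 4.96 from 25 reads in replicate 2. Its IDR was 0.165 and it held neither sequence. The unpaired replicate 2 peak, in an intron of HOOK2 7.21 kb upstream of JUNB, had 3.44 from 17 reads. JUND, the Jun gene known for steady expression in most tissues, had no peak in either replicate, as did 16.5% of protein-coding genes. The nearest shared region to JUND was 118 kb away and the nearest replicate 2 peak 74.4 kb away.

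Reproducible regions were limited to JUN and FOSL1 among the 10 genes. An IDR of 0.05 or less was met by 4 of the 9 shared regions, compared with 45.2% of all shared regions, and 3 of the 4 were at JUN. Genes with a reproducible region made up 26.8% of all protein-coding genes, compared with 2 of 10 here. A shared region with a fold enrichment of 5 or more in both replicates was found at the same 2 genes, compared with 20.1%. JUN and FOSL1 were each represented by 1 region there.

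Among the BATF and ATF genes, BATF had peaks in 1 replicate alone. BATF encodes a small protein that lacks a transactivation domain and is best known from lymphocytes. It had no peak in replicate 1 and 5 in replicate 2, and as many replicate 2 peaks were found at 22.7% of protein-coding genes. The strongest lay in a BATF intron, 13.7 kb from the gene start, with a fold enrichment of 10.4 from 54 reads, a −log10 q of 32.6 and ATAAACA 5 bp from its summit. By −log10 p it ranked 4263 in replicate 2. Of the 4264 replicate 2 peaks ranked as well or better, ties included, replicate 1 failed to overlap 32, or 0.75%, and the nearest replicate 1 summit to this peak was 82.5 kb away. Replicate 1 reads at this place were not analysed here, because the lists hold called peaks alone.

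A second intronic BATF peak, 11.5 kb from the gene start, had a fold enrichment of 4.58 from 23 reads and GTAAACA on the minus strand 26 bp from its summit. The others, at 239 bp upstream of BATF, 9.34 kb into it and 38.5 kb from the gene start, had 3.63, 2.58 and 2.49. All but the strongest were thus below a fold enrichment of 5. The peak 9.34 kb into BATF held CCAAGAACAATA on the minus strand, a match to an extended forkhead element in which CCAA stands ahead of a looser core. Such a match was found at 2.2% of the replicate 2 peaks that replicate 1 did not overlap. The shared region nearest to BATF lay outside its window, 68.9 kb away in an intron of JDP2, a repressor of AP-1, with fold enrichments of 8.19 and 20.9.

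BATF3, needed for the development of a class of dendritic cells, and ATF3, a stress-induced partner of Jun proteins, are neighbours on chromosome 1 with a gap of 65.6 kb between them. Their windows overlapped, and 1 weak replicate 1 peak between the genes, with a fold enrichment of 2.71 from 13 reads, was counted for both. It was the only replicate 1 peak of BATF3. In replicate 2, BATF3 had 3 peaks. They had fold enrichments of 4.96 from 25 reads at 20 kb from the gene start, with GTAAACA and ATAAACA near its summit, 3.2 from 16 reads in a BATF3 exon, and 3.74 from 21 reads in an intron of NSL1. No BATF3 peak was therefore paired between the replicates.

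ATF3 had 4 peaks in each replicate and 2 shared regions, both in its introns and both higher in replicate 1 by fold enrichment. The first (chr1:212740175-212741129) had a fold enrichment of 4.56 from 24 reads in replicate 1 and 3.5 from 26 reads in replicate 2, a mean of 4.03 ± 0.747 (SD, n = 2). GTAAACA, on the minus strand, was centred on the summit itself. The second (chr1:212769474-212770037), 31.1 kb from the gene start, had 3.94 from 25 reads and 3.79 from 45 reads, with GTAAACA 35 bp from the summit. The fold enrichments of the replicates were thus nearer to equal at ATF3 than at JUN or FOSL1. Equal values were not the rule, since replicate 2 was typically 1.69 times as high over all shared regions (median). The ATF3 ratios, 0.768 and 0.963, lay below that. The JUN regions at 29.8 and 20.7 kb, with 1.68 and 1.74, lay close to it. The other JUN regions and FOSL1 lay above it, from 2.58 to 3.25. The IDR values of the ATF3 regions were 0.406 and 0.265. Among the 13238 shared regions, ranked by −log10 p, the first stood at 5224 in replicate 1 and 11582 in replicate 2, and the second at 5989 and 9513.

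The unpaired peaks of ATF3 were weaker. Replicate 1 had one 12.9 kb upstream, with a fold enrichment of 2.71 from 15 reads and GTAAACA 14 bp from its summit, beside the peak counted for BATF3 too. Replicate 2 had one in an ATF3 intron, 36.1 kb from the gene start, with 3.41 from 22 reads and GTAAACA 30 bp from its summit, and one beyond the gene at 62 kb with 2.91 from 15 reads.

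The placing of the first ATF3 region shows how a fixed distance divides like values. Its midpoint lay 2003 bp from an ATF3 start, outside the 2 kb limit, while the replicate 2 summit lay 1997 bp from it and the replicate 1 summit 2009 bp. ATF3 was therefore counted with a start-site peak in replicate 2 and not in replicate 1.

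Start sites of the AP-1 subunit genes were reached in replicate 2 more often than in replicate 1. A replicate 1 peak within 2 kb of a start was present at FOS alone, 1 of 10 genes, compared with 12.4% of protein-coding genes. In replicate 2 such a peak was present at FOS, FOSL2, JUN, BATF, BATF3 and ATF3, 6 of 10, compared with 25.4%. With peaks of a −log10 q of 5 or more, only FOS and JUN were left, 2 of 10, compared with 12.1%. The other 4 genes were reached by peaks of 16 to 26 reads with a −log10 q from 2.33 to 4.84. The members had a median of 3 annotated start sites and all protein-coding genes a median of 5.

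Reads at the 9 shared regions were then compared between the replicates. Over all shared regions, replicate 2 had 1.81 times as many reads over the summits. At the AP-1 subunit genes the ratio ran from 1.08 at the first ATF3 region (95% interval 0.598 to 1.97) to 2.46 at the upstream JUN region (1.76 to 3.49). An exact two-sided binomial test against the ratio over all shared regions, with Benjamini-Hochberg adjustment over 13238 regions, called 0 of the 9, with adjusted p from 0.663 to 1, and 0 had an unadjusted p under 0.05. Of all shared regions, 0.703% were called. The intervals cover counting error only, and the test sets 2 libraries against each other, not conditions. Only regions with a peak in both replicates entered it. Places with a peak in 1 replicate alone, such as the strongest BATF peak, were therefore not tested. The calls were adjusted over 13238 regions, and the intervals were not. With 16 to 50 reads in replicate 1, differences as wide as these intervals or somewhat wider could therefore be missed at this depth.

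**Figure D4:**
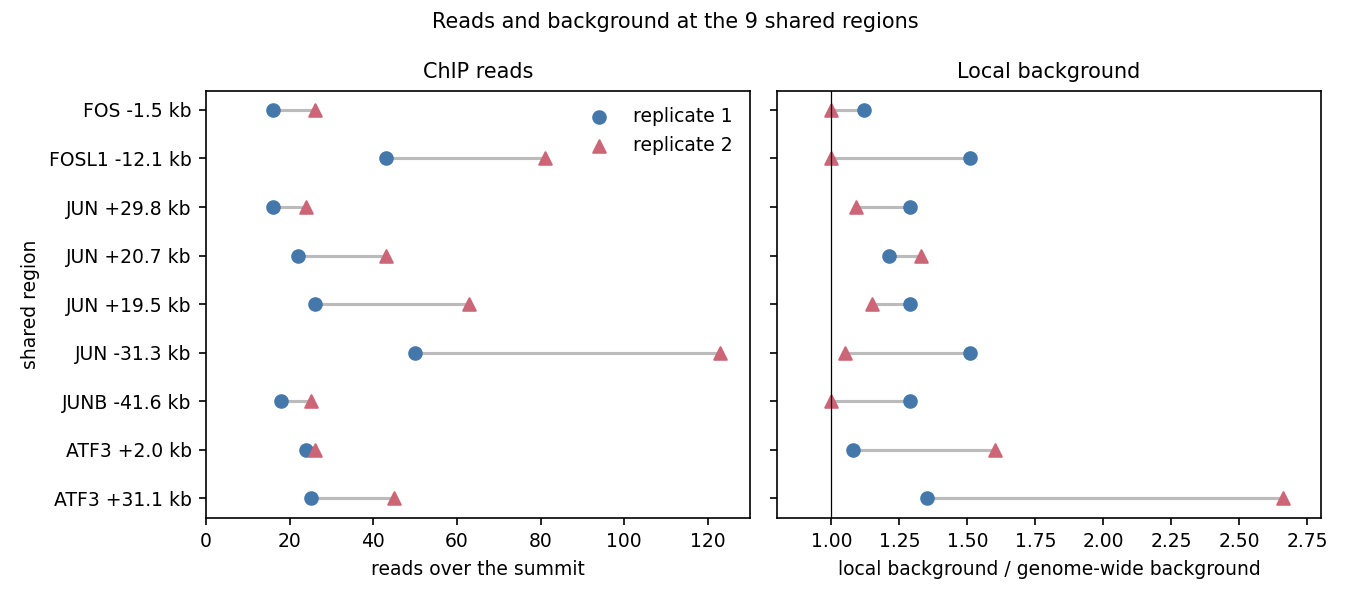
Reads over the summit (left) and local background divided by the genome-wide background (right) at the 9 shared regions, with replicate 1 as circles and replicate 2 as triangles. Replicate 2 had more reads at all 9, from 26 against 24 at the first ATF3 region to 123 against 50 at the upstream JUN region, and its local background reached 2.66 at the second ATF3 region.

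By fold enrichment, 7 of the 9 shared regions were higher in replicate 2, with a median ratio of the second replicate to the first of 1.72, against 1.69 over all shared regions. The ratio ran from 0.768 at the first ATF3 region to 3.25 at the upstream JUN region. Only the pair of ATF3 regions were higher in replicate 1, as were 8.14% of all shared regions. The local background, relative to the genome-wide background, was lower in replicate 2 at 6 of the 9 regions and higher at both ATF3 regions and the JUN region at 20.7 kb. At the first ATF3 region it was 1.08 times the genome-wide background in replicate 1 and 1.6 times in replicate 2, and at the second 1.35 and 2.66 times. At the upstream JUN region the order was the opposite, with 1.51 times in replicate 1 and 1.05 times in replicate 2, and at the FOSL1 region 1.51 and 1 times. The JUN region at 20.7 kb had 1.21 and 1.33 times with a fold enrichment ratio of 1.74, and the JUNB region had 1.29 and 1 times with a ratio of 1.67. Fold enrichment is the pileup over the local background, so reads and background both enter these ratios by definition. The size of each part was not tested.

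**Figure D5:**
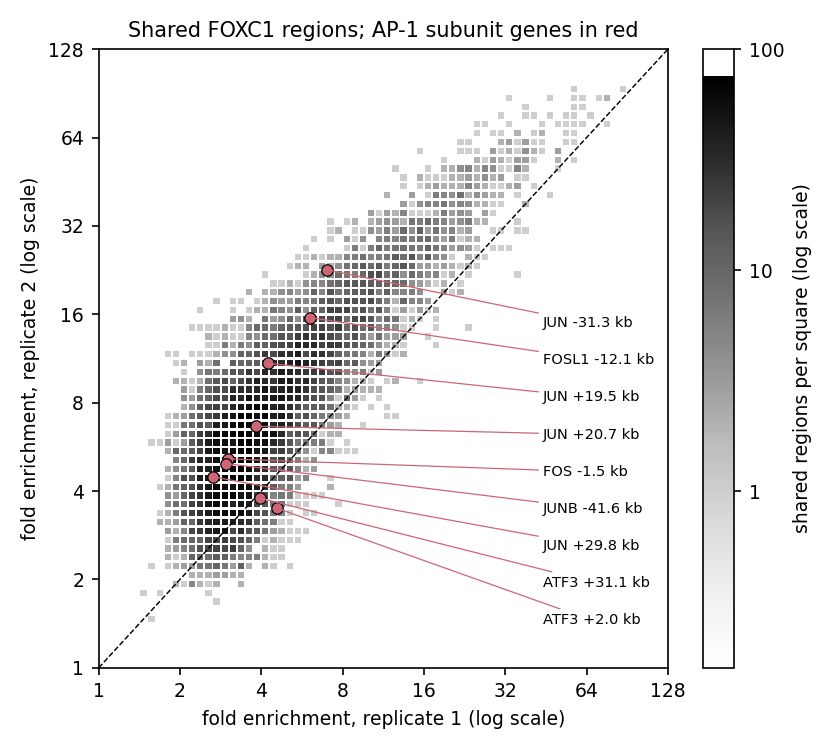
Fold enrichment in replicate 2 against replicate 1 (both log scales) at all 13238 shared regions, shaded by the number per square, with the 9 regions of the AP-1 subunit genes as red points and a dashed line where the replicates are equal. The ATF3 regions lie below the line, and the other 7 lie above it, with JUN at 7 and 22.7 the highest.

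Sequences under the summits were then counted. The forkhead sequence was present within 50 bp of the summit at 5 of the 9 shared regions, compared with 48.7% of all shared regions. These were the FOSL1 region, both ATF3 regions and the JUN regions 31.3 kb upstream and 20.7 kb beyond the gene start. The AP-1 sequence was present at 1 of 9, the JUN region 29.8 kb from the gene start, compared with 16.6%. At the remaining 3 neither was found. They were the FOS and JUNB regions and the JUN region 19.5 kb from the gene start, where the replicate 2 summit alone had a forkhead sequence within 50 bp. Among replicate 2 peaks that replicate 1 did not overlap, 8 of 27 at the AP-1 subunit genes had the forkhead sequence, compared with 33.3%. All of these shares were near those of peaks elsewhere, and a match is a run of letters and not proof of a bound site.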

How the data were processed

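FOXC1 ChIP-seq in J82 cells was analysed from 1 narrowPeak list per ChIP replicate. Groups came from the titles of the samples. By the study's methods, the authors mapped reads to hg19 with BWA and called peaks against input with MACS2, and the submitters' processing notes name MACS2 version 2.2.7.1 and bedtools. The filter behind the lists is not given in the sources used here. The lists ran down to a −log10 p of 2 in replicate 1 and 2.02 in replicate 2, so they include weakly supported peaks. The score deposited by the authors is the −log10 p multiplied and truncated to a whole number, and was not used further. The fold enrichment deposited by the authors is a ratio of ChIP pileup to local background, with 1 added to each. The −log10 p and −log10 q deposited by the authors compare that pileup with the same background.

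Entries on other contigs were left out, 42 in replicate 1 and 43 in replicate 2. Whole reads over each summit and the local background were solved from the −log10 p and fold enrichment (residual under 0.001) for 100% of peaks in both lists. Depth follows from the smallest peak widths, 260 and 270 bp, and a genome size of 2.7 Gb. Shared summits were set midway between the summits of the best peaks. The IDR mixture was fitted to all 13238 shared regions and need not match the authors' own set. Genes came from GENCODE version 44 on GRCh37, while the study used version 19. Reads were compared by an exact binomial test with Benjamini-Hochberg adjustment. Scripts used Python 3.11.15, numpy 2.4.6, pandas 2.3.3 and scipy 1.17.1, and were tested on simulated data.

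The 10 members and the other gene lists were chosen with earlier results of these data known. All members were named, with their shared regions or, where there were none, their strongest peaks; remaining peaks were added after their values were seen, as was the choice of sequences to show and their length of 101 bp. Genes of the other lists were named by the better of their shared regions, ranked by the worse replicate, with up to 4 per list, and some of these genes and 1 sequence are not reported here. Alternatives changed the distance, overlap, peak threshold, IDR limit, start-site distance, motif window and replicates used.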

Additional observations from a re-analysis of the deposited data

How the results depend on the processing

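Alternatives came from the planned list, apart from those named as added. Counts near the AP-1 subunit genes followed the distance and the peak threshold. In the order gene body alone, within 10 kb, within 100 kb, −log10 q of at least 5 and fold enrichment of at least 5, the replicate 1 peaks went from 14 to 2, 4, 27, 6 and 2, and the replicate 2 peaks from 36 to 9, 21, 59, 14 and 7. Members with a shared region went from 5 to 1, 2, 8, 3 and 2, shared regions from 9 to 2, 3, 18, 5 and 2, and reproducible regions from 4 to 0, 0, 9, 2 and 2. For the last pair the IDR was fitted again to the peaks left by the threshold. With the IDR kept from all shared regions, an alternative added after seeing the data, 4 and 2 were left. Members with a shared region at a start site went from 1 to 0 within 1 kb, 2 within 5 kb, 0 at a −log10 q of at least 5 and 0 when peaks had to overlap by 50% of the shorter. With 1 replicate left out, members with a region ranged from 6 to 9, regions from 14 to 36 and members reached at a start site from 1 to 6. Forkhead matches went from 5 to 3 within 25 bp of the summit, and AP-1 matches from 1 to 3 within 100 bp. The other 15 recomputed counts stayed within 1.5 times the value reported, among them the 0 of 9 regions called by the reads test under both of its alternatives, which called 89 of 13238 and 94 of 11924 regions in all, compared with 93.

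No paired analysis was possible because the input libraries had no peak lists here and no result came from a test between groups. Depth limits the weak peaks most, since the lowest had 13 reads in replicate 1 and 12 in replicate 2, and a gene without a listed peak is not shown to be unbound.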

Other observations

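Shared regions were also counted at genes that work with AP-1. Of the kinases that act upstream of AP-1, 6 of 10 had a shared region within 50 kb, and at MAPK9, which encodes the Jun kinase JNK2, the best reached fold enrichments of 24.4 and 28.9 in the first and second replicate, in an intron of the neighbouring gene GFPT2. At MAP3K1 the values were 9.87 and 10.9, and at MAPK10 they were 4.45 and 9.42. Of the related genes with a basic leucine zipper, 5 of 11 had a shared region, led by CREB5 with 26 and 24.7 and by MAFK with 14.7 and 23.4, followed by JDP2 with 8.19 and 20.9.

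Of the regulators of FOS transcription, 4 of 6 had a shared region, with the best at ELK3, a partner of serum response factor, at 7.16 and 14.3. MRTFA had 6.39 and 6.61, MRTFB had 3.29 and 5.38, and SRF itself had 3.46 and 5.54. Of the other immediate-early genes, 3 of 8 had one, with 11.8 and 26.3 at IER5, 10.7 and 17.9 at DUSP1, a phosphatase of the same kinases, and 3.68 and 5.15 at NR4A1. IER3, among the 5 without a shared region, lies in the major histocompatibility complex, for which hg19 also holds alternative haplotype contigs that were left out here, and the part of mapping was not tested. At DUSP1 the region lay 1.29 kb upstream of the gene start. All these shares stand beside 46.6% of protein-coding genes with a shared region, and no difference between the lists was tested. The counts were not adjusted for gene length, which ran from 1.35 kb at IER3 to 605 kb at MAPK10.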
